A study of Homo sapiens with 4 samples.

Results

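The 10 mitotic and checkpoint kinases described here are CDK1, PLK1, AURKA, AURKB, BUB1, BUB1B, TTK, NEK2, WEE1 and PKMYT1, which were picked by name from the 36601 genes listed in the matrices. All 10 were found under 1 gene identifier each in every matrix, and all 10 passed the filter on low counts in each comparison below. WEE1 and PKMYT1 are called brakes, and the other 8 are called entry kinases for short, although some of them act later in mitosis.

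Cells enter mitosis when CDK1, bound to cyclin B, is switched on. The kinases WEE1 and PKMYT1 hold CDK1 off by phosphorylating inhibitory sites on it, and CDC25 phosphatases remove these marks. PLK1 promotes entry by activating CDC25 and targeting WEE1 for degradation, AURKA activates PLK1 and matures centrosomes, and NEK2 helps centrosomes separate. AURKB is the kinase of the chromosomal passenger complex, whereas TTK, BUB1 and BUB1B work in the spindle assembly checkpoint, which delays chromosome separation until kinetochores are attached. Most of these genes are transcribed periodically, with a peak in G2 and mitosis, through promoter elements named CHR and CCAAT boxes, and p21 is known to lower their transcription after DNA damage by keeping their repressor complex assembled.

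The samples were U-2 OS cells, an established human osteosarcoma line, either left untreated (UT) or given 4 Gy of ionizing radiation (IR). Each of 2 experiments gave 1 library per group, so that n is 2 libraries a group. The series design and the study's methods place irradiation 48 h before sorting, while the treatment protocol in the labels says 24 h. Single cells were sorted into plates and their polyadenylated RNA was counted from the 3′ end by SORT-seq, with a unique molecular identifier (UMI) on each molecule.

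There were 358 UT cells in experiment 1 and 367 in experiment 2, against 247 and 248 IR cells, and all pairs of values below keep this order of experiments. Gene counts summed to between 5736339 and 6810079 a library. Median counts a cell were 15662.5 and 17627 for UT, and IR cells were deeper at 20181 and 22036. Mesenchymal genes of the line were high in every library (VIM 1722 to 2215 counts relative to the gene total of the library, scaled as CPM, and SPARC 1114 to 1199), RUNX2 was at 22 to 30.2 CPM, and COL1A2 was near 0 at 0.511 to 2.64 CPM. EPCAM, an epithelial gene, was at 13.6 to 17.2 CPM, while no listed leukocyte or endothelial gene exceeded 4.11 CPM. Libraries shared 173 to 350 cell barcodes pairwise. No pair of libraries agreed within sampling noise.

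On GRCh38, GENCODE places CDK1 at chr10:60778331-60794852 and PLK1 at chr16:23677656-23690367, both on the plus strand. AURKA lies at chr20:56369389-56392337, AURKB at chr17:8204733-8210600, BUB1 at chr2:110637528-110678063 and NEK2 at chr1:211658657-211675630, all on the minus strand. BUB1B is at chr15:40161023-40221123 and TTK at chr6:80003887-80042527 on the plus strand. Of the brakes, WEE1 is at chr11:9573670-9593457 on the plus strand and PKMYT1 at chr16:2968024-2980479 on the minus strand. Exons of BUB1B overlap those of PAK6 on the same strand, and exons of PKMYT1 (with KREMEN2 and PAQR4) and PLK1 (with ERN2 and AC008870.3) overlap genes on the opposite strand. The use of strand in counting is not given in the sources used here, so a part of these 3 genes' reads could belong to, or be lost to, their neighbours.

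Promoter sequences are shown because the levels of most members differed between phases of the cell cycle, in the ways described below. RefSeq promoter windows of 250 bases before to 50 bases after the start (GRCh38.p14) were matched for 6 members, in 8 windows. AURKA, TTK, WEE1 and PKMYT1 were not matched. The CHR was searched as TTTGAA, its reverse complement TTCAAA and TTCGAA, and the CCAAT box as CCAAT and its reverse complement ATTGG. A CHR was found in 4 of these 6 genes (66.7%) against 16.4% of all 35116 promoters in the table. A CCAAT box was found in 5 of 6 (83.3%) against 34.6%, and both elements in 3 of 6 against 6.38%. Members were counted as genes with a match in any window, whereas the 35116 are single windows. CDK1 and AURKB had 2 windows each, which did not differ in the presence of either element. A match of such short words is a description and not a bound site. The stretches that end at the base before the start are given below 5′ to 3′ on the gene's strand, with the matched letters in capitals, over 30 or 100 bases. Those of CDK1, PLK1 and BUB1B lie after the GENCODE start of the gene given above, inside an annotated exon, because RefSeq lists a later start. They come from chr10:60778448-60778477 (plus), chr16:23678859-23678888 (plus), chr15:40161039-40161068 (plus), chr2:110678064-110678163 (minus) and chr1:211675622-211675721 (minus).
CDK1: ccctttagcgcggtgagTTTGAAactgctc
PLK1: gTTTGAAttcggggaggagcggagcggtgc
BUB1B: cgttaaaTTTGAAacttggcggctaggggt
BUB1: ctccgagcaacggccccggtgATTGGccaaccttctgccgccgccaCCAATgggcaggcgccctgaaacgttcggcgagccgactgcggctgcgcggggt
NEK2: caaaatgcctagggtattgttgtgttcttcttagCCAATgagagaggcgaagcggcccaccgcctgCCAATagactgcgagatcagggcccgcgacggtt

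The CHR copies printed for CDK1 (at the later of its 2 listed starts), PLK1 and BUB1B began 13, 29 and 23 bases before the start. CDK1 had more matches at that start, with CHR letters 69 bases before it and 10 bases after it and CCAAT boxes 78 and 46 bases before it, and at its first start a CHR 161 and a CCAAT box 150 bases before. That of BUB1, TTCGAA, began at base 2 after the start and is not shown. CCAAT boxes began 79 and 54 bases before the start in BUB1 and 66 and 34 bases before it in NEK2, each pair close together. In PLK1 a single copy began 73 bases before the start, and AURKB held a copy but no CHR in either of its 2 windows.

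Summed over all cells of a library, every member was lower in IR than in UT in both experiments. CDK1 was at 192 and 197 CPM in UT and at 137 and 129 CPM in IR. PLK1 was at 178 and 143 CPM in UT and at 100.1 and 100.2 CPM in IR. In each of these genes the IR libraries lay below both UT libraries, by 1.46-fold and 1.60-fold on the group means. CPM are relative to the total counts of a library, and IR cells held more counts. CDK1 counts per cell were 3.15 and 3.66 for UT, against 3.19 and 3.21 for IR, so that the ratio of IR to UT was 1.01 in experiment 1 and 0.878 in experiment 2.

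The other entry kinases showed the same order. AURKB, which corrects faulty attachments of chromosomes, was at 99.5 and 95.7 CPM in UT and at 67.8 and 62.1 CPM in IR. AURKA was at 89.0 and 109.5 CPM in UT and at 71.7 and 85.0 CPM in IR, the smallest difference among the entry kinases. NEK2 was at 60.0 and 55.5 CPM in UT and at 33.3 and 40.3 CPM in IR. The IR libraries lay below both UT libraries in each of these 3 genes, although AURKA in IR experiment 2 came within 4 CPM of UT experiment 1.

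The spindle checkpoint kinases followed. BUB1, a kinetochore scaffold, was at 88.1 and 110.0 CPM in UT and at 60.7 and 76.3 CPM in IR. BUB1B, a part of the complex that inhibits the anaphase-promoting complex, was at 91.7 and 92.1 CPM in UT and at 64.9 and 54.8 CPM in IR. TTK, which starts checkpoint signalling, was the member with the fewest counts, at 34.8 and 43.2 CPM in UT and 22 and 28.1 CPM in IR. For all 3 genes the groups did not overlap.

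The brakes differed from each other. PKMYT1 was at 131 and 103 CPM in UT and at 95.7 and 69.0 CPM in IR, below UT in both libraries. WEE1 was at 119.6 and 95.2 CPM in UT and at 101.3 and 82.8 CPM in IR, and was the only member whose groups overlapped, since UT experiment 2 lay below IR experiment 1. Within each experiment WEE1 was still lower in IR.

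**Figure D1:**
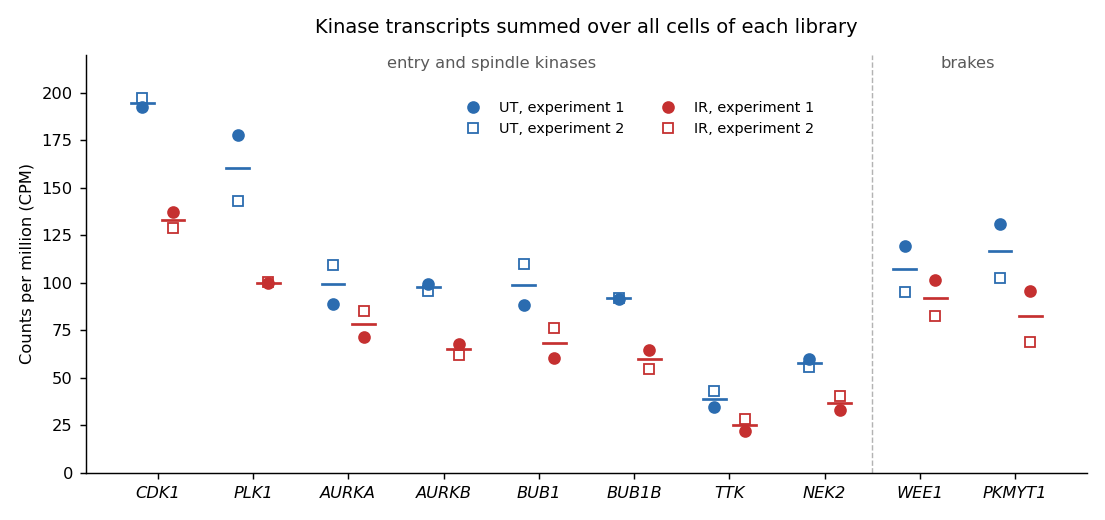
CPM of the 10 kinases (linear axis from 0) summed over all cells of each library, with UT in blue, IR in red, filled circles for experiment 1, open squares for experiment 2 and bars at group means over 2 libraries. The groups are apart for every kinase but WEE1, and CDK1 lies at means of 195 CPM in UT and 133 CPM in IR.

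Whether these differences were called depended on the pairing of the experiments and on the filter on low counts. With group as the only term in edgeR's quasi-likelihood test, 0 of 10 members were called at an adjusted p of 0.05, while 9 had an unadjusted p under it and DESeq2 called 1 (PLK1). Of all 14647 genes tested by edgeR, 2697 had an unadjusted p under 0.05 in either direction, and 0.847% were called lower. DESeq2 called 1.71% of its genes lower. With the experiment as a block, which the shared experiment numbers of the libraries justify, all 10 members fell on the CPM scale, against 12.9% of all genes, with 1 residual degree of freedom. Both IR libraries lay below both UT libraries in 9 of 10 members and in 18.5% of all genes. The median log2 fold change of the members was -0.65, with -0.00 over all genes. Scaled per cell, which moved the median of all genes by 0.54 on the log2 scale, no member was called, 8 stayed below 0, and AURKA (0.12) and WEE1 (0.25) turned positive. Scaled per spike-in RNA, in a fit without the experiment, only PLK1, NEK2 and TTK stayed below 0 and no gene was called. Spike-in RNA made up 0.318% and 1.21% of UT counts and 0.191% and 0.952% of IR counts. This fit left that difference between experiments in its spread, so the absence of calls is not read. Within experiments the ratio per spike-in was below 1 in both for PLK1 and NEK2, above 1 in both for WEE1, and mixed for the others.

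The size of the difference was largest for PLK1 (log2 fold change -0.76, SE 0.17, edgeR adjusted p = 0.0710, 6.5e-09 with the block), and it was similar for NEK2 (-0.73, SE 0.17, 0.0819 and 6.4e-06) and TTK (-0.72, SE 0.20, 0.119 and 5.7e-05). CDK1 had -0.63 (SE 0.14, edgeR adjusted p = 0.0752, 1.6e-07 with the block). BUB1B had -0.70 (SE 0.16, 0.0781 and 5.1e-07), AURKB -0.67 (SE 0.15, 0.0751 and 9.5e-07) and BUB1 -0.61 (SE 0.19, 0.143 and 5.5e-06) by the same fits. PKMYT1 had -0.58 (SE 0.22, 0.217 and 4.9e-06), AURKA -0.42 (SE 0.17, 0.261 and 0.0016) and WEE1 -0.30 (SE 0.19, 0.464 and 0.024). Without a filter on low counts, 8 members were called lower (all but AURKA and WEE1), as were 2.24% of the 26020 genes then tested. Leaving out 1 library moved the value of WEE1 to between -0.47 and -0.12, of PKMYT1 to between -0.85 and -0.36 (the smallest without IR experiment 2) and of AURKA to between -0.55 and -0.28 (the smallest without UT experiment 2). For WEE1 the values were -0.12 without UT experiment 1, -0.16 without IR experiment 2, -0.46 without IR experiment 1 and -0.47 without UT experiment 2. Differences between members were not tested.

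In the same libraries CDKN1A, which encodes the CDK inhibitor p21, was at 324 and 277 CPM in UT and at 959 and 914 CPM in IR (log2 fold change 1.56, SE 0.17, edgeR adjusted p = 0.0176). It was also higher per cell, 4.20 and 4.43 times UT, and per spike-in, 4.93 and 4.19 times UT.

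Counts summed over a library cannot tell fewer cells with a transcript from less of it per cell, so cells were put into phase classes. Each cell was thinned to 8000 UMIs, and 1152 of 1220 cells were deep enough. Cells were scored on 43 S-phase and 48 G2/M genes, the members left out of both lists, and were called G2/M, S or low-cycle (neither score above the mean of UT cells). Most listed genes outside the scores followed the classes. CCNB1 was at 419 to 469 CPM in G2/M cells, 133 to 222 CPM in S cells and 52.7 to 111 CPM in low-cycle cells. MCM3 was at 186 to 251 CPM in S cells and 103 to 120 CPM in G2/M cells. The S gene GINS1 was lower in S than in G2/M cells of IR experiment 2 (62.6 and 67.8 CPM). TK1, another S gene, differed little between these classes, as in UT experiment 1 (821 and 741 CPM). The classes are ranges of a score: 14.2% to 18.3% of the cells of a library had a G2/M score within 0.25 SD of the cutoff.

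The share of G2/M cells was lower in IR. It was 34.2% (95% exact binomial interval 29.1 to 39.6) and 30.6% (25.9 to 35.7) in UT and 19.0% (14.2 to 24.7) and 23.3% (18.0 to 29.3) in IR, and the intervals of the groups overlapped in experiment 2. S cells made up 37.2% and 43.8% of UT and 21.2% and 15.5% of IR, and low-cycle cells 28.5% and 25.6% of UT and 59.7% and 61.2% of IR. The intervals, here and below, cover counting error only, and 2 against 2 libraries cannot give an exact permutation p below 0.33. CDKN1A was highest in low-cycle cells, at 608 and 556 CPM in UT and 1150 and 1139 CPM in IR.

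Levels of the members by phase fell into a few patterns, which are described and not tested because the classes come from the same cells. PLK1, NEK2 and AURKA were concentrated in G2/M cells. In UT, PLK1 was at 378 and 317 CPM in G2/M cells, 77.4 and 68.5 CPM in S cells and 35.0 and 31.1 CPM in low-cycle cells. NEK2 was 4.81 and 4.55 times, and AURKA 3.91 and 4.98 times, as high in G2/M as in S cells of UT. In IR these G2/M to S ratios of summed counts were smaller. They were 3.72 and 2.82 for PLK1, 2.95 and 2.33 for NEK2 and 2.86 and 2.61 for AURKA. Such sums weight deep cells more and rest on few IR S cells. With cells thinned to equal depth, only PLK1 kept a smaller ratio in both experiments. Mean NEK2 UMIs in G2/M and S cells of experiment 2 were 0.954 and 0.25 in UT, against 0.704 and 0.111 in IR, a larger ratio. For AURKA in experiment 1 they were 1.61 and 0.387 in UT, against 1.64 and 0.388 in IR, a similar ratio.

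CDK1, AURKB, BUB1, BUB1B and TTK were already high in S cells. CDK1 in UT was at 40.5 and 24.2 CPM in low-cycle cells, 207 and 208 CPM in S cells and 294 and 297 CPM in G2/M cells. Its G2/M to S ratio lay between 1.39 and 1.48 in all 4 libraries. AURKB, BUB1, BUB1B and TTK had ratios of 1.62 to 2.59 in UT, and TTK was hardly seen in low-cycle cells, at 2.06 and 2.07 CPM in UT.

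The brakes followed neither pattern. PKMYT1 was highest in S cells of every library, at 205 and 137 CPM in UT and 209 and 139 CPM in IR, and was 0.634 to 0.824 times as high in G2/M cells. WEE1 varied least between classes and was highest in G2/M cells in UT experiment 1 only. It was at 92.6 and 57.4 CPM in low-cycle cells, 117 and 105 CPM in S cells and 141 and 103 CPM in G2/M cells of UT, and its G2/M to S ratio went from 1.21 and 0.984 in UT to 0.859 and 0.756 in IR.

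**Figure D2:**
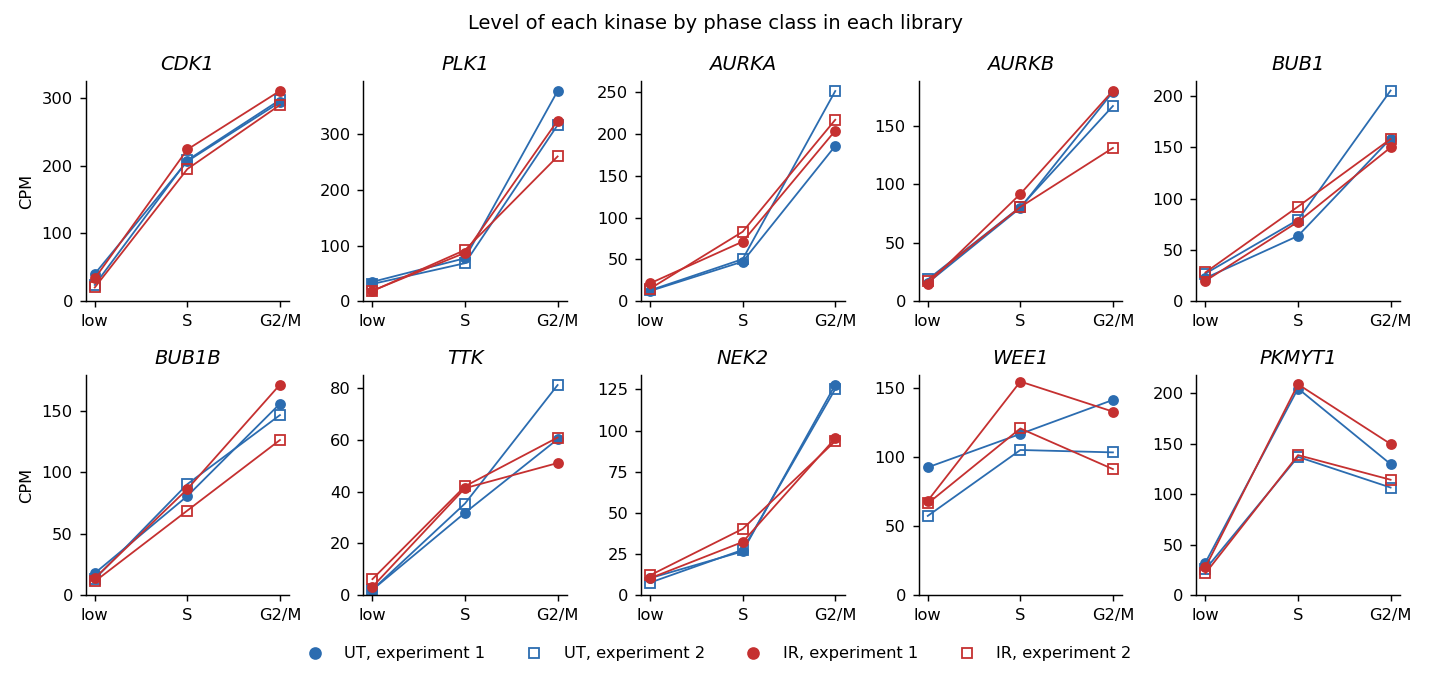
CPM of each kinase (linear axes from 0, each with its own range) in low-cycle, S and G2/M cells of each library, coloured and marked by group and experiment, lines joining the classes of a library. PLK1, AURKA and NEK2 rise mostly between S and G2/M, PKMYT1 peaks in S, and WEE1 is the flattest.

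When only G2/M cells were compared, the fitted log2 fold change was smaller in size for every member than over all cells, a contrast that was not tested. The class had 114 and 109 cells in the UT libraries, only 44 and 54 in the IR libraries, and sums of 61 to 809 counts per member and library. By edgeR, 0 of 10 members were called lower (0.16% of the 11881 genes tested). An unadjusted p under 0.05 was seen for 1 member and, in either direction, for 1387 of all genes. DESeq2 called 0 members. With the experiment as a block, 2 members (PLK1 and NEK2) were called lower, against 4.63% of all genes. Both IR libraries lay below both UT libraries in 2 members (BUB1 and NEK2) and in 14.9% of all genes. The median log2 fold change of the members was -0.24, with -0.00 over all genes.

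NEK2 was called with the block and did not overlap between groups. It was at 128 and 125 CPM in UT and at 95.3 and 93.6 CPM in IR G2/M cells (log2 fold change -0.51, SE 0.19, edgeR adjusted p = 0.302, 0.0125 with the block). Its value lay between -0.54 and -0.48 when 1 library was left out and was -0.33 with the G2/M cutoff at 0.5 SD. PLK1 was at 378 and 317 CPM in UT and at 324 and 260 CPM in IR (-0.34, SE 0.20, adjusted p = 0.571, 0.0394 with the block), lower within each experiment while the groups overlapped. The value of PLK1 was -0.17 without IR experiment 2, -0.19 without UT experiment 1, -0.52 without IR experiment 1 and -0.10 with that cutoff. On counts per cell neither direction held, as NEK2 had 0.17 and PLK1 0.34 on the log2 scale and neither was called.

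CDK1 had a fitted value near 0 among G2/M cells. It was at 294 and 297 CPM in UT and at 310.3 and 289 CPM in IR (log2 fold change -0.07, SE 0.18, edgeR adjusted p = 0.940, 0.801 with the block). PKMYT1, at 129.8 and 107 CPM in UT and 149.7 and 114 CPM in IR, had a fitted value above 0 (0.06, SE 0.22, edgeR adjusted p = 0.954), which turned negative without UT experiment 2 (-0.08), without IR experiment 1 (-0.15), with the G2/M cutoff at 0.5 SD (-0.05) and with unthinned scores (-0.0016). The value of CDK1 was 0.09 with equal cell numbers. WEE1 was at 141 and 103 CPM in UT and at 133 and 91.3 CPM in IR (-0.23, SE 0.25, adjusted p = 0.793). For these 3 genes the experiments differed more than the groups, or the groups overlapped.

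The remaining members overlapped between groups except BUB1. BUB1 was at 158 and 205 CPM in UT and at 149.7 and 158 CPM in IR (-0.33, SE 0.20, edgeR adjusted p = 0.570), with less than 1 CPM between IR experiment 2 and UT experiment 1. TTK had -0.42 (SE 0.23, adjusted p = 0.531), AURKB -0.25 (SE 0.21, adjusted p = 0.707), AURKA -0.14 (SE 0.20, adjusted p = 0.859) and BUB1B -0.12 (SE 0.21, adjusted p = 0.891). AURKB was -0.02 without IR experiment 2 and -0.50 without IR experiment 1, while without UT experiment 2 BUB1 was -0.14 and TTK -0.20. AURKA, AURKB and BUB1B were higher in IR in experiment 1 and lower in experiment 2.

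Counted per cell, every member was higher in IR G2/M cells. IR cells of this class held more UMIs, with medians of 17532 and 19552 in UT and 22980 and 28352 in IR, and scaling per cell moved the median of all genes by 0.68 on the log2 scale. No member was then below 0, and 2 were called higher, CDK1 (0.61, edgeR adjusted p = 0.0498) and PKMYT1 (0.74, adjusted p = 0.0314), as were 30.8% of all genes. CDK1 had 5.52 and 6.11 counts per G2/M cell in UT and 8.43 and 9.33 in IR.

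**Figure D3:**
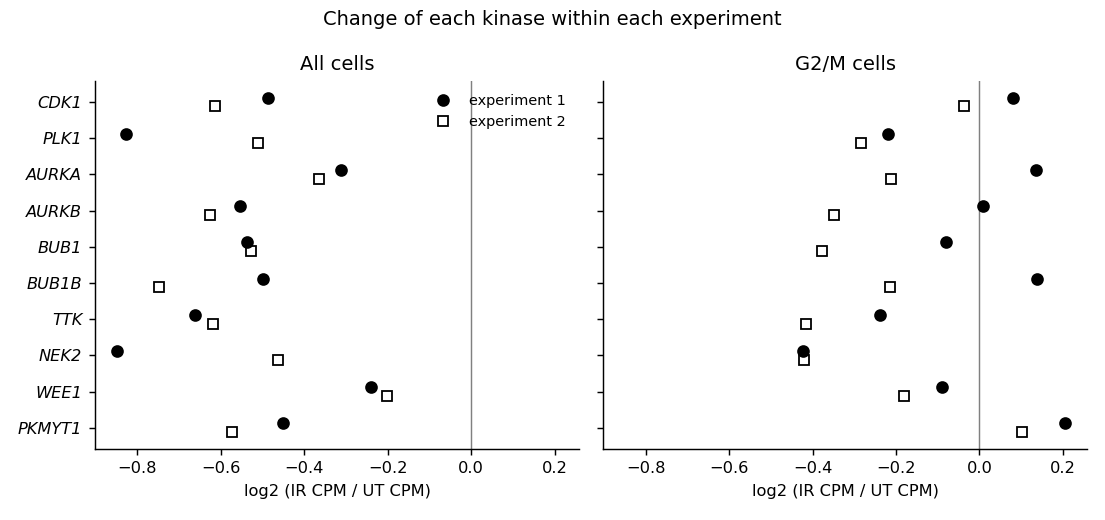
Log2 ratio of IR to UT CPM of each kinase within experiment 1 (filled circles) and experiment 2 (open squares), in all cells and in G2/M cells, with the line at no difference. Every point lies below 0 in all cells, while in G2/M cells only PLK1, BUB1, TTK, NEK2 and WEE1 lie below 0 in both experiments.

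How far the mix of phases alone went was calculated after the levels by phase had been seen. The UT level of each member in each class was combined with the share of counts that each class held in IR of the same experiment. In UT every member was lower in low-cycle cells than in S or G2/M cells, and low-cycle cells made up more of IR. The mix alone therefore had to give values below UT for all 10 members, and only its size is read. Its median log2 differences were -0.60 and -0.37. The observed medians over the scored cells were -0.53 and -0.54. For CDK1 the mix alone gave -0.56 and -0.55 and the observed values were -0.52 and -0.62. For PKMYT1 they were -0.50 and -0.57 against -0.46 and -0.57. Observed minus mix was below 0 in both experiments for PLK1 (-0.24 and -0.24), NEK2 (-0.22 and -0.15) and BUB1 (-0.00 and -0.18). It was smaller for WEE1 (-0.08 and 0.07) and went in opposite directions for AURKA (0.33 and -0.05). This sum assumes that a class means the same cells in both groups, and within G2/M cells the median score was 0.884 and 1.08 for UT, against 0.702 and 0.744 for IR.

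S cells did not show the lower levels of the whole libraries. In 7 members the CPM were higher in IR in both experiments and in 0 members lower in both. The share of all genes with such an order in S cells was not calculated, so these counts are only a description. AURKA was at 47.5 and 50.4 CPM in UT and 71.4 and 83.2 CPM in IR S cells, and PLK1 at 77.4 and 68.5 against 87.1 and 92.1 CPM. These sums rest on 49 and 36 IR cells and weight deep cells more. With each cell thinned to 8000 UMIs, mean AURKA UMIs per S cell were 0.387 and 0.33 for UT, against 0.388 and 0.50 for IR, and mean NEK2 UMIs were 0.210 and 0.25 for UT, against 0.286 and 0.111 for IR, so that no order is read for NEK2. Mean PLK1 UMIs per S cell were 0.565 and 0.571 for UT, against 0.776 and 0.556 for IR, and no order is read for PLK1 either. In the same S cells CCNB1 was at 174 and 133 CPM in UT and 222 and 185 CPM in IR, and MCM3 at 251 and 221 against 186 and 190 CPM. How far position within the S class moved with these values was not tested.

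The balance of entry kinases and brakes was followed as the log2 ratio of each of the 8 entry kinases to each brake. Only its change between groups is read, since 3′ counts of different genes are not on one scale. Relative to WEE1, all 8 were lower in IR in both experiments over all cells, with a median change of -0.38 on the log2 scale (-0.30 in experiment 1 and -0.37 in experiment 2). The change was -0.45 for PLK1, -0.43 for NEK2, -0.33 for CDK1 and -0.12 for AURKA, and for 5 of the 8 pairs the groups did not overlap (CDK1, PLK1, AURKB, BUB1B and NEK2). The share of all genes whose ratio to WEE1 would not overlap was not calculated, so this count is only a description. Relative to PKMYT1 the balance moved little: the median change was -0.09, 4 of 8 pairs were lower in both experiments, AURKA was higher in both, and all pairs overlapped.

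In summed counts of G2/M cells the shift was against the other brake. Relative to WEE1 the median change was -0.06, only PLK1, TTK and NEK2 were lower in both experiments, CDK1 was higher in both (0.17 and 0.14), and all pairs overlapped. Relative to PKMYT1 all 8 entry kinases were lower in IR in both experiments, with a median change of -0.35 (-0.24 and -0.41). It was -0.57 for NEK2, -0.47 for TTK, -0.40 for PLK1 and -0.13 for CDK1, and PLK1, AURKB, BUB1B and NEK2 did not overlap. With cells thinned to equal depth, this order did not hold for all 8 in experiment 1. Mean PKMYT1 UMIs per G2/M cell there were 1.06 in UT and 1.05 in IR. Means rose for CDK1 (2.21 to 2.43), AURKA (1.61 to 1.64), AURKB (1.47 to 1.61) and BUB1B (1.18 to 1.32). They fell for PLK1, BUB1, TTK and NEK2. In experiment 2 mean PKMYT1 UMIs were 0.624 in UT and 1 in IR, and all 8 were lower relative to it in IR. The 8 ratios to a brake share that brake's value, so they are not separate observations. How often ratios of all genes to PKMYT1 would not overlap was not calculated either. The ratios were not fitted in a model, and an exact permutation test over 2 against 2 libraries cannot give a p below 0.33, so no p is given.

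**Figure D4:**
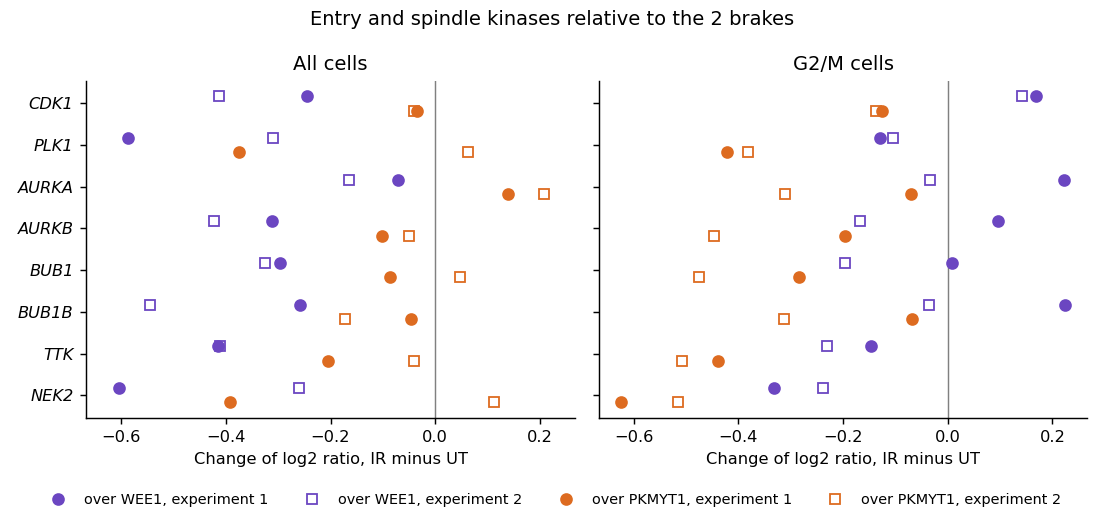
Change of the log2 ratio of each of 8 entry kinases to WEE1 (purple) and to PKMYT1 (orange), IR minus UT, within experiment 1 (filled circles) and experiment 2 (open squares). From summed counts, the ratios to WEE1 lie below 0 for all 8 over all cells, and in G2/M cells the ratios to PKMYT1 do.

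In single G2/M cells at 8000 UMIs, PLK1 was detected in 85.1% (77.2 to 91.1) and 84.4% (76.2 to 90.6) of UT cells and 88.6% (75.4 to 96.2) and 75.9% (62.4 to 86.5) of IR cells, the highest share of any member in each library but IR experiment 2, where BUB1 reached 81.5%. Unthinned, PLK1 was seen in 93.0% and 95.4% of UT cells against 97.7% and 92.6% of IR cells. TTK was detected least often, in 35.1% and 40.4% of UT and 29.5% and 44.4% of IR cells. NEK2 was detected in 54.4% and 59.6% of UT cells and in 22 of 44 and 27 of 54 IR cells, with means of 1.06 and 0.954 UMIs in UT and 0.886 and 0.704 in IR. The binomial intervals of UT and IR overlapped for PLK1, TTK and NEK2. In low-cycle cells, which should express little of them, PLK1 was detected in 23.2% and 22% of UT and 14.5% and 12% of IR cells and TTK in 1.10% to 3.52%.

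The brakes were detected in at least 43.1% of the G2/M cells of each library. WEE1 was detected in 62.3% and 51.4% of UT and 56.8% and 51.9% of IR G2/M cells, and PKMYT1 in 64.0% and 43.1% of UT and 54.5% and 63.0% of IR cells. A UMI of both brakes was seen in 38.6% and 27.5% of UT and 27.3% and 29.6% of IR cells. In low-cycle cells WEE1 was more frequent than PLK1: 44.2% and 34.1% of UT and 37.7% and 31.0% of IR cells had a UMI.

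The number of the 8 entry kinases seen together in a cell was a similar range in the groups. The median G2/M cell had 5 and 6 of 8 in UT and 5 and 5 in IR, with a median of 10 and 12 entry kinase UMIs in UT and 10.5 and 9.5 in IR. All 8 were seen together in 10 of 114 and 7 of 109 UT cells and 5 of 44 and 2 of 54 IR cells, and in 0 S or low-cycle cells. The largest S group, 156 cells of UT, allows a share of up to 2.34% (exact upper limit). S cells had a median of 3 in every library, and low-cycle cells of 1 in both UT and 0 in both IR libraries.

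**Figure D5:**
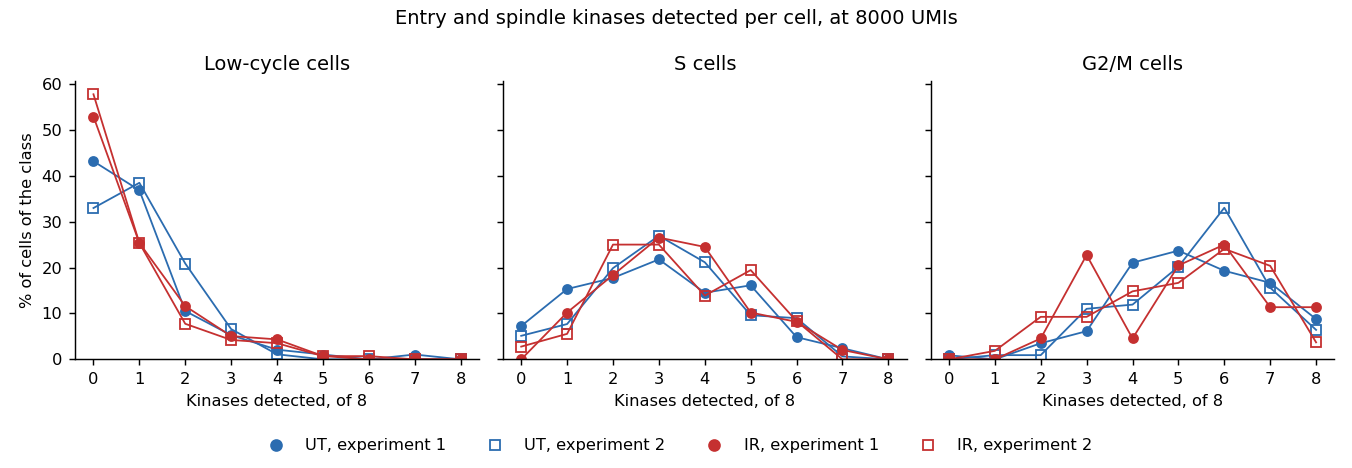
Share of cells (%) with 0 to 8 of the entry kinases detected, in low-cycle, S and G2/M cells of each library after thinning to 8000 UMIs, coloured and marked by group and experiment. Most G2/M cells of every library have 3 to 7 of them, and more low-cycle cells have 0 in IR (73 of 138 and 82 of 142) than in UT (41 of 95 and 30 of 91).

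CDK1 was the member furthest from an even spread over G2/M cells, having in every library the largest excess of cells without a UMI over the Poisson formula. It had no UMI in 29.8% and 34.9% of UT and 34.1% and 37.0% of IR G2/M cells, although its mean was 2.21 and 2.05 UMIs for UT, against 2.43 and 1.98 for IR. Cells drawing from 1 mean would give 11% and 12.9% in UT and 8.79% and 13.8% in IR by the Poisson formula. The variance over the mean was 2.25 to 2.68 for CDK1 in all 4 libraries, 1.23 to 2.71 for PLK1 and 0.824 to 1.31 for WEE1. PLK1 was without a UMI in 14.9% and 15.6% of UT cells, against 4.72% and 7.59% by the formula.

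G2/M cells without a CDK1 UMI differed in other genes, which were picked after their values were seen. UBE2C, which encodes the ubiquitin-conjugating enzyme of the anaphase-promoting complex, had 0.471 and 0.947 UMIs per cell in UT cells without CDK1 and 2.61 and 3.30 in UT cells with it. In IR the means were 0.533 and 1.10 without and 2.97 and 3.79 with CDK1. CCNB1 went the other way in all 4 libraries, at 5.15 and 4.26 UMIs without and 3.74 and 3.01 with CDK1 in UT, and at 4.73 and 4.10 without and 3.34 and 3.59 with it in IR. TTK was lower without CDK1 in every library (0.200 to 0.395 against 0.448 to 0.794 UMIs). UBE2C belongs to the G2/M score that chose these cells, whereas CCNB1 and TTK do not. This split is within libraries and was not tested.

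The genes whose thinned UMIs were most like CDK1 across UT cells were UBE2C (Spearman's rho 0.53, mean of the 2 UT libraries), TOP2A (0.52), RRM2 (0.50), MELK (0.47) and KIF23 (0.46), among 8728 genes compared. For PLK1 they were PRR11 (0.58), TUBA1C (0.55), CENPF (0.53), ASPM (0.52) and KPNA2 (0.50). No gene reached 0.3 with WEE1, the highest mean being 0.15. These are across all cells of a library, which share depth after thinning and differ in phase. Among G2/M cells, PLK1 and AURKA had 0.34 and 0.36 in UT and 0.26 and 0.11 in IR. PLK1 and AURKB went the other way, with 0.0071 and 0.13 in UT and 0.55 and 0.32 in IR. WEE1 and PKMYT1 had -0.06 and 0.15 in UT and -0.04 and -0.14 in IR. No change between groups is read from these pairs.

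Other genes of the pathway were followed in lists by role. Of 13 mitotic cyclins and CDK1 activators, 0 were called in all cells by edgeR, with 8 lower (12.9% of all genes) and 1 higher (14.3%) with the block. CCNA2, cyclin A2, was at 134 and 193 CPM in UT and 80.2 and 99.3 CPM in IR (log2 fold change -0.94, SE 0.21, edgeR adjusted p = 0.0711, 2.5e-12 with the block), and CDK7, of the CDK-activating kinase, at 51.1 and 53 against 89.6 and 73.4 CPM (0.57, SE 0.17, adjusted p = 0.140, 0.00011 with the block). CCNB1 had -0.52 (SE 0.16, adjusted p = 0.146, 1.2e-05 with the block) and CKS1B -0.59 (SE 0.15, adjusted p = 0.0927, 1.4e-07). Of 6 partners of PLK1 and the Aurora kinases, 0 were called without and 5 lower with the block (12.9% of all genes), among them BIRC5, the survivin subunit of the passenger complex (-0.66, SE 0.15, edgeR adjusted p = 0.0752, 3.8e-07 with the block). These directions are on the CPM scale: per cell CCNB1 was 0.921 and 1.12 times UT, and per spike-in in experiment 1 CKS1B was 1.12 and BIRC5 1.02 times UT.

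Of 10 other mitotic kinases, 0 were called without the block, and 6 were lower (12.9% of all genes) and 1 higher (14.3%) with it. PLK4, which drives centriole duplication, came closest (-0.98, SE 0.19, edgeR adjusted p = 0.0514, 2.2e-07 with the block), although per spike-in it was 1.03 times UT in experiment 1. Of 12 spindle checkpoint and anaphase-promoting complex genes, 2 fell without the block (0.847% of all genes) and 9 with it (12.9%). KNL1, the kinetochore platform for BUB1 and BUB1B, went from 103 and 110.4 CPM in UT to 49.5 and 60.1 CPM in IR (-1.04, SE 0.16, edgeR adjusted p = 0.0345), and was lower per cell too, at 0.682 and 0.732 times UT. ZWINT, a binding partner of KNL1, fell by 0.86 on the log2 scale (SE 0.16, adjusted p = 0.0469), at 0.944 and 0.683 times UT per cell but 1.11 times UT per spike-in in experiment 1.

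Of 11 G2 checkpoint kinases and CDK1 inhibitors, 2 rose (CDKN1A and GADD45A, as did 1.63% of all genes) and 1 fell (0.847%), and with the block 5 rose (14.3%) and 3 fell (12.9%). GADD45A, a stress gene, was at 80.3 and 83.8 CPM in UT and 243 and 228 CPM in IR (log2 fold change 1.44, SE 0.15, edgeR adjusted p = 0.0155). CHEK1, the kinase that restrains CDC25, was at 56.1 and 57.3 CPM in UT and 33.3 and 31.8 CPM in IR (-0.88, SE 0.16, adjusted p = 0.0439). PLK3 had 0.97 (SE 0.19, adjusted p = 0.0508, 2.6e-07 with the block). Of 15 genes for the transcription of G2 and M genes, 3 fell without (0.847% of all genes) and 10 with the block (12.9%). FOXM1, the activator of mitotic genes, went from 196 and 179.6 CPM to 115 and 109 CPM (-0.83, SE 0.15, adjusted p = 0.0444), and E2F1 (-1.20, SE 0.17, adjusted p = 0.0276) and RBL1 (-1.18, SE 0.19, adjusted p = 0.0384) also fell. CHEK1, FOXM1, E2F1, RBL1 and KNL1 were lower in IR per cell and per spike-in in both experiments as well. Of 5 opposing phosphatase genes, 0 were called and 1 (PPP1CC, -0.33, SE 0.15, edgeR adjusted p = 0.290, 0.0036 with the block) was lower with the block, while per cell it was higher at 1.27 and 1.06 times UT.

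Among G2/M cells the same lists gave 2 calls without the block, both higher (0.648% of all genes). With the block, 5 of 11 G2 checkpoint kinases and CDK1 inhibitors were called higher (6.66% of all genes) and 2 lower (4.63%). Called lower with it were also 1 of 13 cyclins and activators, 3 of 12 spindle checkpoint genes and 2 of 15 transcription genes. CDKN1A was at 183 and 139 CPM in UT and 692 and 631 CPM in IR (log2 fold change 1.95, SE 0.21, edgeR adjusted p = 0.00685), and GADD45A at 75.2 and 59.7 against 217 and 249.8 CPM (1.70, SE 0.21, adjusted p = 0.00915). KNL1 (-0.78, SE 0.20, adjusted p = 0.118, 2.1e-06 with the block), CCNA2 (-0.53, SE 0.21, adjusted p = 0.334, 0.00062 with the block) and FOXM1 (-0.45, SE 0.19, adjusted p = 0.383, 0.0076 with the block) were among them. ZWINT (-0.36, 0.0467 with the block), NDC80, a kinetochore subunit (-0.38, 0.0443 with the block), and CHEK1 (-0.58, 0.0497 with the block) were near the threshold, PLK3 was higher (0.82, 0.0289 with the block), and E2F1 (-0.30, 0.462 with the block) was not called. Per cell, KNL1 (0.810 and 1.05 times UT), CCNA2 (1.29 and 0.975 times) and CHEK1 (0.986 and 1.16 times) did not keep 1 direction, and FOXM1 (1.05 and 1.31 times), ZWINT (1.32 and 1.18 times) and NDC80 (1.25 and 1.21 times) were higher in IR.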

How the data were processed

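U-2 OS cells, untreated or irradiated, were sequenced by SORT-seq in 2 experiments, which the study's methods describe as independent sets; n is libraries, and cells are not replicates. The authors mapped reads with STARsolo to GRCh38, without intronic reads, without reads matching several genes and with no UMI cutoff. The deposited values are expected counts, UMI counts corrected for UMI saturation by the authors (about 99.9% or more of values lay on the correction's steps), where the design had assumed plain counts. UMIs have 6 bases, hence 4096 possible sequences, and no member exceeded 37 in a cell.

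Values were summed per library and rounded, and tested by edgeR 4.0.16 (quasi-likelihood, TMM scaling, its default filter on low counts, robust, R 4.3.3) with Benjamini-Hochberg adjustment over all genes, threshold 0.05. CPM divide by the gene total. Experiment numbers pair the libraries, being named in the labels, and deviations from group means correlated within experiments (0.635 in all cells, 0.433 in G2/M cells). The fit with experiment as a block had 1 residual degree of freedom, the fit without it 2. Spike-in RNA made up 0.191% to 1.21% of counts. Cells under 8000 UMIs (68) were left out of phase scores, and the rest were thinned with NumPy 2.4.6. Doublets were not called, since cells were sorted singly. Entry to brake ratios used a prior count of 2. Fits were tested on simulated data.

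The members and lists were chosen with earlier results of these data known. Named genes were all members, CDKN1A, up to 4 genes of lowest p over all cells in each role list, and the 5 genes of highest correlation (at least 0.3) with CDK1, PLK1 and WEE1. The genes of the CDK1 split and the phase mix were chosen after values were seen. Alternatives were DESeq2 1.42.0, no filter, scaling per cell or spike-in, equal cell numbers, other phase settings and leaving out each library.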

Additional observations from a re-analysis of the deposited data

How the results depend on the processing

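Over all cells, edgeR called 0 of 10 members, DESeq2 called 1, the fit without a filter 8 and the fit with experiment as a replicate block 10. Among all genes edgeR called 239 higher and 124 lower, against 2094 and 1883 for the block, 341 and 231 by DESeq2, 929 and 584 without a filter, 3332 and 47 per cell and 0 and 0 per spike-in, where 17 genes had an unadjusted p under 0.05. Leaving out 1 library gave 52 to 95 higher and 10 to 23 lower, and 0 members called each time. Per cell, AURKA (0.12) and WEE1 (0.25) turned positive on the log2 scale. Per spike-in, in a fit without the experiment, CDK1 (0.15), AURKA (0.33), AURKB (0.10), BUB1 (0.11), BUB1B (0.12), WEE1 (0.44) and PKMYT1 (0.21) did. Of these only WEE1 was above UT per spike-in within both experiments (1.41 and 1.11 times). The others were above UT in experiment 1 and below it in experiment 2, as for BUB1B (1.18 and 0.757 times). Scaling per cell and per spike-in moved the median of all genes by 0.54 and 0.74.

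In G2/M cells the block called 2 members lower and scaling per cell 2 higher. Among all genes edgeR called 77 higher and 19 lower, against 791 and 550 for the block, 280 and 123 without a filter, 3662 and 16 per cell and 0 and 0 per spike-in (18 with an unadjusted p under 0.05). Scaling per cell moved the median of all genes by 0.68 and turned CDK1 (0.61), PLK1 (0.34), AURKA (0.54), AURKB (0.42), BUB1 (0.35), BUB1B (0.55), TTK (0.26), NEK2 (0.17) and WEE1 (0.45) positive. Per spike-in, which moved it by 0.82, the values were 0.80, 0.52, 0.80, 0.70, 0.59, 0.83, 0.45, 0.32 and 0.65 in the same order. CDK1 was 0.092 with equal cell numbers, and with a G2/M score over 0.5 SD CDK1 was 0.044, BUB1B 0.10 and PKMYT1 -0.050. With unthinned scores PKMYT1 was -0.0016. That higher cutoff put 24.6% of UT experiment 1 and 11.3% and 15.9% of IR in G2/M. Leaving out 1 library gave -0.33 to 0.081 for AURKA (positive without UT 2), -0.36 to 0.10 for BUB1B (positive without IR 2), -0.53 to 0.042 for WEE1 (positive without UT 1 or IR 2) and -0.15 to 0.26 for PKMYT1 (negative without UT 2 or IR 1). The median ratio of entry kinases to WEE1 was -0.065 in G2/M in place of all cells. Of the other values for single members, 170 kept their direction and their side of the threshold and 22 kept the direction and newly passed it. Except for the changes of scale, whose construction moves all genes, the cause of these changes was not tested.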
